A study of Mus musculus with 16 samples.

Results

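The 10 genes described here encode the subunits of transducin and of phosphodiesterase 6 (PDE6) in rod and cone photoreceptors. They were chosen by gene symbol, and all 10 were listed among the 25905 gene symbols of the authors' table. Of them, 6 encode rod subunits (Gnat1, Gnb1, Gngt1, Pde6a, Pde6b and Pde6g) and 4 encode cone subunits (Gnat2, Gnb3, Pde6c and Pde6h). RNA sequencing was performed on retinas from the right eyes of 16 wild type C57BL/6 mice. The labels give an age of 10 weeks, which by the study's methods was the age of the flown mice at launch. The spaceflight group of 8 mice was flown on the International Space Station and returned to Earth alive before the eyes were taken. The ground control group of 8 mice was kept on Earth in the same housing hardware, so that both groups shared housing and diet. The levels below are means over all 16 libraries, in which both groups are pooled. The counts per library carry laboratory codes that match no label of a mouse or a group, so values per mouse and the comparison of spaceflight with ground control are not analysed here. Depth and spread over the libraries are not analysed here either, since columns that match no label were not used, so the levels are given without an error.

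Transducin is the G protein of vision and is made of an alpha, a beta and a gamma subunit. Light-activated opsin loads the alpha subunit with GTP, and the alpha subunit then relieves the inhibition of PDE6, the enzyme that breaks down cyclic GMP. The fall in cyclic GMP closes the cation channels of the outer segment, and the photoreceptor hyperpolarizes. Rods and cones run the same cascade with separate genes for most subunits. Rod PDE6 is a heterodimer of the catalytic subunits encoded by Pde6a and Pde6b, and cone PDE6 is a homodimer of that encoded by Pde6c. Each is held inactive by small inhibitory subunits, of which Pde6g encodes the rod form and Pde6h the cone form. Loss of Pde6b function is the cause of the classical rd1 form of retinal degeneration in mice.

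The rod subunit genes were far above the cone subunit genes in the retina. Of the 6 rod genes, 5 had mean normalized counts from 7348 (Gngt1) to 154477 (Gnat1). Of the 4 cone genes, 3 had mean normalized counts from 537 (Pde6h) to 1419 (Gnb3). The ranges of these 5 and 3 genes did not overlap. The remaining member of each set, Gnb1 of the rod genes and Pde6c of the cone genes, was near 0. Their mean normalized counts were 0.266 and 0.0699. The mean normalized count of a gene is its read count divided by the size factor of each library and averaged, and the median over all gene symbols was 6.98. Together the rod genes held 3.10% of the sum of this measure over all genes, and the cone genes held 0.0448%.

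**Figure D1:**
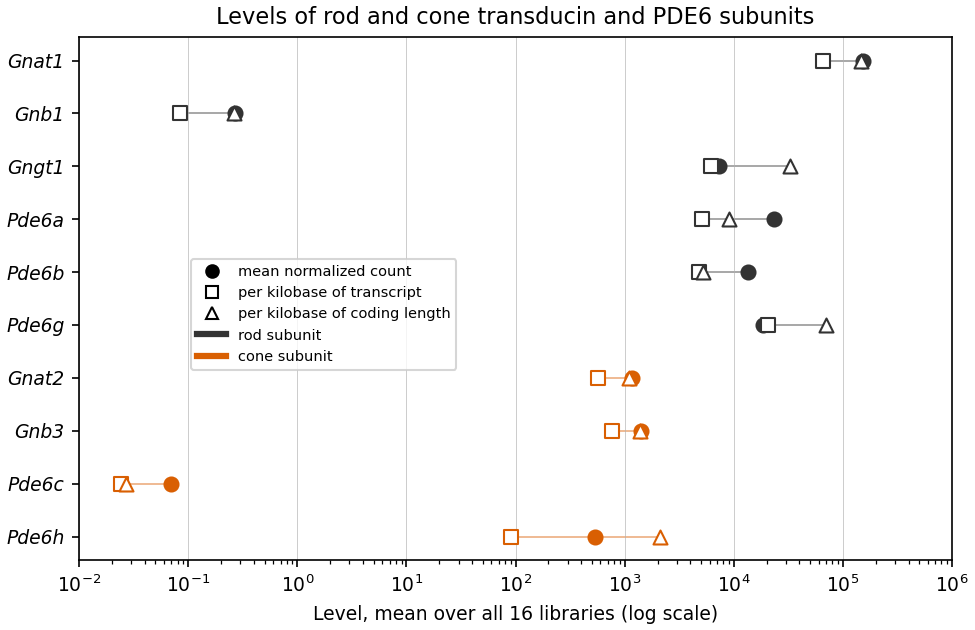
Levels of the 10 members on a log axis, with rod subunits in black and cone subunits in orange. Circles are mean normalized counts over all 16 libraries, squares are the same per kilobase of transcript and triangles per kilobase of coding length. The 5 rod genes not near 0 lie to the right of every cone gene on each scale, while Gnb1 and Pde6c lie at the left edge.

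The alpha subunits showed the same order. Gnat1, the rod alpha subunit, had a mean normalized count of 154477, the rank of 2 among all gene symbols. Gnat2, the cone alpha subunit, had a mean normalized count of 1175 and the rank of 1156. Levels of different genes are comparable only per length, so each count was also divided by the length of the matching reference transcript. On that scale Gnat1 was at 66356 per kilobase and Gnat2 at 572 per kilobase, a ratio of 116. Divided by coding length in place of transcript length, the ratio was 133. In bulk retina, fewer cells of a type and less RNA per cell cannot be told apart, so a ratio between rod and cone genes holds the numbers of both cell types as well as the level in each.

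Among the beta subunit genes, that of cones was well above 0 and that of rods was near 0. Gnb3, the cone beta subunit, which ON bipolar cells also express, had a mean normalized count of 1419 and the rank of 861. Per kilobase of transcript its level was 769, which was 1.34 times that of Gnat2. The mean normalized count of Gnb1, the rod beta subunit, which is also used by many other cell types, was 0.266, and its rank was 17869. Of its paralogs used mainly outside photoreceptors, Gnb2 had a mean normalized count of 518 and Gnb4 of 22.7. Gnb1 was therefore listed below both of these genes. Paralogs of the other members had mean normalized counts of 1.15 for Gnat3, the taste alpha subunit, of 176 for Pde5a and of 25.5 for Pde11a.

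The gamma subunit of rods, Gngt1, had a mean normalized count of 7348 and the rank of 70. Its transcript is short, and per kilobase its level was 6212, with Gnat1 10.7 times higher. Per kilobase of coding length Gnat1 was 4.49 times higher than Gngt1. The gamma subunit of cones, Gngt2, is not among the 10 genes, and its mean normalized count was 4.02.

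The catalytic subunits of rod PDE6 lay close to each other per kilobase of transcript. Pde6a had a mean normalized count of 23335 and the rank of 19, and Pde6b of 13375 and the rank of 35. Per kilobase of transcript their levels were 5086 and 4778, a ratio of Pde6a to Pde6b of 1.06. Per kilobase of coding length the levels were 9034 and 5202, and the ratio rose to 1.74, since the reference transcript of Pde6a has 4588 bases for a coding length of 2583, and that of Pde6b 2799 bases for 2571. Whether these genes differed in level thus depended on which length was used. The catalytic subunit of cone PDE6, Pde6c, had a mean normalized count of 0.0699 and the rank of 19078.

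The genes of both inhibitory subunits were well above 0 in the bulk retina, which does not show the cells the reads came from. Pde6g of rods had a mean normalized count of 18453 and the rank of 27. Pde6h of cones had a mean normalized count of 537 and the rank of 2774. Their coding sequences are of nearly the same length, 264 and 252 bases, and per kilobase of coding length Pde6g was at 69898 and Pde6h at 2129, a ratio of 32.8. Per kilobase of transcript the ratio was 227, because the reference transcript matched to Pde6h has 5940 bases and that of Pde6g has 900. The size of this ratio of Pde6g to Pde6h therefore rested on the length assigned to Pde6h, and its direction did not. Among the rod genes, Pde6g was above those of the catalytic subunits per length. Pde6a was at 0.248 and Pde6b at 0.233 of the level of Pde6g per kilobase of transcript. Per kilobase of coding length Pde6a and Pde6b were at 0.129 and 0.0744 of the level of Pde6g.

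The coding sequences of Pde6g and Pde6h are shown because they are the shortest rod and cone pair among the 10 genes, and a read has to tell them apart. They were read from the GENCODE transcripts matched to the counted RefSeq transcripts, and the capitals mark the longest run that both share, of 17 bases.
Pde6g: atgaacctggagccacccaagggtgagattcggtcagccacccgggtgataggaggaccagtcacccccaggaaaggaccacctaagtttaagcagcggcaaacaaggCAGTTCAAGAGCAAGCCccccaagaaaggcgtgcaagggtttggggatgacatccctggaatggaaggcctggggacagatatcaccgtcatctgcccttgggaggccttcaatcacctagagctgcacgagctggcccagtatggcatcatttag
Pde6h: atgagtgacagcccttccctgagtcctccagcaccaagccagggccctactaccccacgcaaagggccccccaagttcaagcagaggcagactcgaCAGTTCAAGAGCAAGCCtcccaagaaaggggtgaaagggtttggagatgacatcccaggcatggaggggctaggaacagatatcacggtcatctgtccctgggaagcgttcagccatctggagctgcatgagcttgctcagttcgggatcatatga

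The run in capitals begins at base 109 of the coding sequence in Pde6g and at base 97 in Pde6h, counted from the first base of the start codon. In a global alignment 185 of 264 columns were identical, which is 70.1%. The reads of the study had 75 bases, longer than any run shared by the members of a rod and cone pair. The longest run shared by the coding sequences was 23 bases for Gnat1 and Gnat2 and 20 bases for Gnb1 and Gnb3. It was 24 bases for Pde6a and Pde6c, 23 bases for Pde6b and Pde6c, and 26 bases for the rod subunits Pde6a and Pde6b. That of Gnat1 and Gnat2, which are 72.3% identical, is shown as the pair with the largest difference in mean normalized count among those measured in both cell types.
Gnat1 and Gnat2: TACGACATGGTGCTGGTGGAGGA

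No window of 75 bases from the reference transcript of any of the 10 genes was found in a transcript of another gene in the same annotation. This covers exact matches on the transcript strand only, and reads with mismatches were not tested.

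Taken over all members, the summed level per kilobase of transcript was 102936 for the rod genes and 1431 for the cone genes, a ratio of 71.9. With coding lengths the ratio was 57.0, and with undivided counts 69.3. The sums hold unlike subunits, and Gnat1 alone gave 66356 of the rod sum. Gnb3, which ON bipolar cells also express, gave 769 of the cone sum. Gnb1 and Pde6c add almost nothing, so the rod sum lacks in effect the beta subunit and the cone sum the catalytic subunit, and the cone genes include no gamma subunit. The median level per kilobase of transcript was 5649 over the 6 rod genes and 331 over the 4 cone genes. Without the members near 0 it was 6212 over 5 rod genes and 572 over 3 cone genes.

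The members near 0 were those that the authors counted as several transcripts. The count table has a row for each RefSeq transcript, and 8 of the 10 genes have 1 row each. Gnb1 has 3 rows (NM_001160016.1, NM_001160017.1 and NM_008142.4) and Pde6c has 2 (NM_001170959.1 and NM_033614.2). The overlap of the counted transcripts was taken from the reference transcripts matched to the rows. For Gnb1, 2 of the 3 rows matched the same reference transcript. All windows of 75 bases in it thus counted as standing in more than 1 row. The share for Gnb1, 95.6% of all different windows, was set by this matching and does not measure overlap between different transcripts. For Pde6c the share was 79.6%, which leaves 607 of 2970 windows that belong to 1 transcript. Gngt2, also counted as 2 transcripts, had a share of 40.4%.

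Low levels were also more frequent across the table among genes counted as several transcripts. Of the 22086 gene symbols with 1 counted transcript, 35.6% had a mean normalized count under 1. The share was 53.9% of the 2704 with 2 counted transcripts, 45.4% of the 683 with 3 and 52.1% of the 407 with 4 or more. Mean normalized counts above 1000 were found in 6.18% of the genes with 1 transcript and in 1.07% of those with 2. They were found in 0.293% of the genes with 3 and in 0.737% of those with 4 or more. A check of the level against the share of windows over all genes with several transcripts is void, since that share could be computed for only 74.1% of them. These groups of genes differ in other ways as well, and the part of the counting in the low values of Gnb1 and Pde6c was not tested. The levels of these members are for this reason given as listed, and no fold against them is reported.

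**Figure D2:**
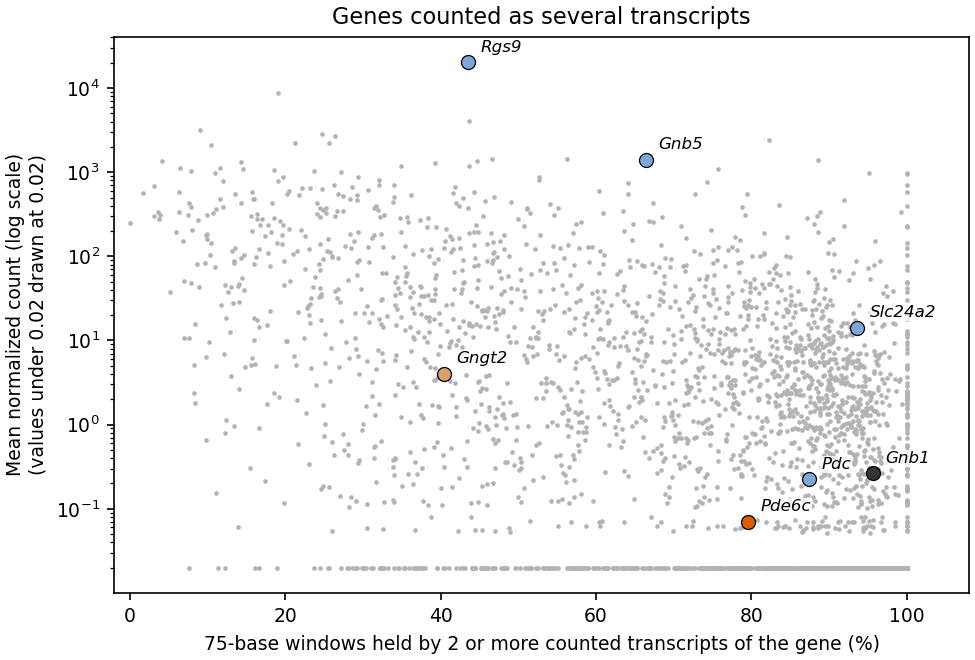
Mean normalized count on a log axis against the share of 75-base windows that stand in several counted transcripts of the same gene, for the 2811 genes with several transcripts that could all be matched to the reference. Grey points are all such genes, with values under 0.02 drawn at 0.02, and the coloured points are named genes of phototransduction. Gnb1 and Pde6c lie at high shares and low levels with Pdc, while Rgs9 lies at 43.6% and Gnb5 at 66.4% with levels above 1000. The share of Gnb1 was set by 2 of its rows matching the same reference transcript.

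The members were set among the rest of the cascade. A list of 23 further genes of phototransduction ran from 0.225 (Pdc) to 29757 (Sag, the rod arrestin) in mean normalized count, with 16 above 1000. Among the proteins that bind transducin or PDE6, Rgs9, the GTPase-activating protein that ends the signal of the alpha subunit, had a mean normalized count of 20418. Its membrane anchor Rgs9bp had 10374 and its partner Gnb5 had 1415. Rgs9 and Gnb5 were both counted as 2 transcripts, with 43.6% and 66.4% of windows shared, and neither was low. How the counting bears on these levels was not tested.

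The lipid-binding carriers of the alpha and PDE6 subunits were also listed. Unc119, which carries the acylated alpha subunit, had a mean normalized count of 7982. Pde6d, which carries prenylated PDE6 subunits, had 735. Aipl1, the chaperone for PDE6 assembly, had 4179. Pdc, or phosducin, binds the beta and gamma subunits of transducin and is known as an abundant photoreceptor protein, but its mean normalized count was 0.225. It was counted as 2 transcripts with 87.4% of windows shared. Of the 34 genes in the members, Gngt2 and this list, 27 were counted as 1 transcript, and the lowest of these was Cngb1 at 145. The 7 counted as several transcripts included the 5 lowest of all, Slc24a2, Gngt2, Gnb1, Pdc and Pde6c.

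**Figure D3:**
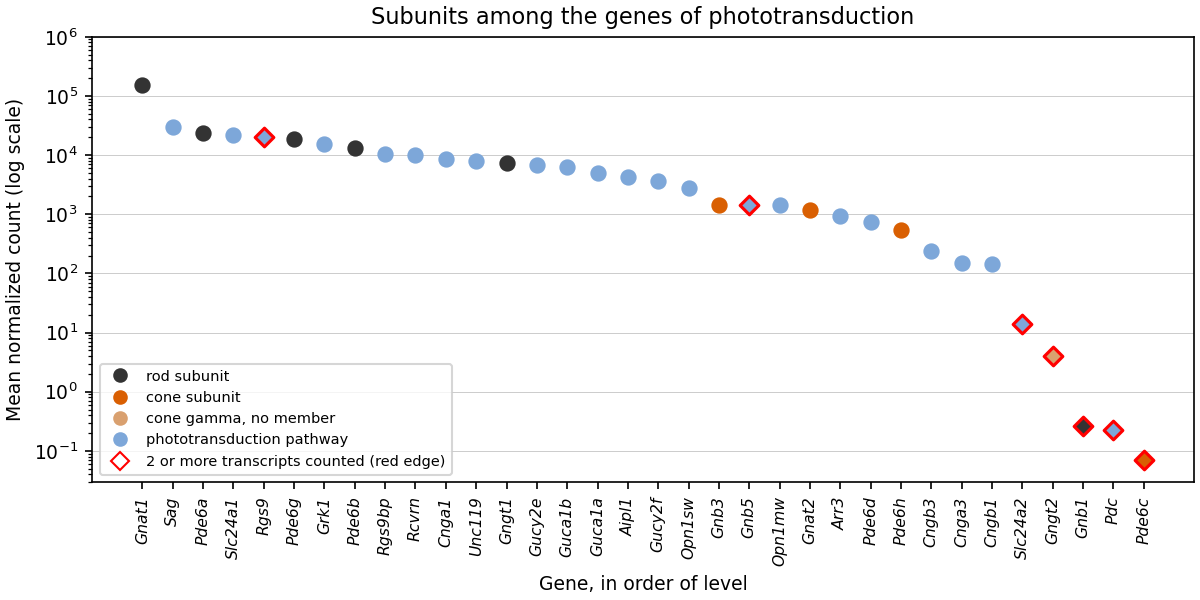
Mean normalized count on a log axis for the 10 members, Gngt2 and 23 other genes of phototransduction, in order of level. Rod subunits are black, cone subunits orange and the other genes blue, and diamonds with a red edge are genes counted as 2 or more transcripts. The 5 lowest genes all have the red edge, and Rgs9 at 20418 and Gnb5 at 1415 are the others with it.

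The cone alpha subunit was below both cone opsins. Opn1sw, the short-wavelength opsin, was at 2.03 times and Opn1mw, the middle-wavelength opsin, at 2.02 times the level of Gnat2 per kilobase of transcript. Per kilobase of coding length these ratios were 2.44 and 1.19.

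The sequence before the start site was listed for 5 of the 10 genes (Gnat2, Gnb1, Gngt1, Pde6b and Pde6h) in the RefSeq promoters of GRCm38.p6. The letters TAATCC, the core recognized by the photoreceptor homeodomain factor CRX, were searched on both strands in the 250 bases before each start, together with TGCTGA, part of the recognition site of the rod factor NRL. TAATCC was found before Gnat2 and Gngt1, and in 6.25% of all 32851 promoters of the same length. TGCTGA was found before Pde6b, and in 16.1% of all promoters. The motifs do not overlap, and a match of letters is not evidence of binding. The 3 promoters with a match are shown, with the matches in capitals.
Gngt1 (rod gamma), chr6:3993758-3994007, plus strand: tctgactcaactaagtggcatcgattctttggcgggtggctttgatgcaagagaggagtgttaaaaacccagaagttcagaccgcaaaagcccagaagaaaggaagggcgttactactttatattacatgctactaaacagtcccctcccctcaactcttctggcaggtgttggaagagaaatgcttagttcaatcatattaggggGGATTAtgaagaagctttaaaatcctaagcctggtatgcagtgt
Gnat2 (cone alpha), chr3:108092816-108093065, plus strand: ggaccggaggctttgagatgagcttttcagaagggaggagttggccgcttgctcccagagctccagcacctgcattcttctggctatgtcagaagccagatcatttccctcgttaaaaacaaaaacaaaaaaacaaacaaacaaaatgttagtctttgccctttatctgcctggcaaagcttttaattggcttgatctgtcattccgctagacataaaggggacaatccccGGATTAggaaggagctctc
Pde6b (rod catalytic), chr5:108388123-108388372, plus strand: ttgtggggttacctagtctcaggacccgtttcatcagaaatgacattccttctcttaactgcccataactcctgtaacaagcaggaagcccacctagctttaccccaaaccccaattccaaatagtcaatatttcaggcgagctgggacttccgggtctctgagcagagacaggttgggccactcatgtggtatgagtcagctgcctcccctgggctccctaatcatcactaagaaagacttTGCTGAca

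In Gngt1 and Gnat2 the match reads GGATTA on the printed strand and begins 44 and 19 bases before the start site, and in Pde6b TGCTGA begins 8 bases before it. The rod gene Gngt1 and the cone gene Gnat2, with mean normalized counts of 7348 and 1175, thus had the same letters.

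Marker genes were listed beside the tissue label. The 4 rod markers used had mean normalized counts from 88.9 (Nrl, counted as 2 transcripts) to 29757 (Sag). The 5 cone markers ran from 149 (Cnga3) to 2800 (Opn1sw). Only 6238 of the 25905 gene symbols were at 0, and markers of tissue beside the retina were above 0 as well. A level above 0 therefore does not test the label. Markers of ON bipolar cells, which share Gnb3 with cones, ran from 407 (Isl1) to 4239 (Prkca) over 4 genes. Of these, Trpm1 was counted as 2 transcripts and had a mean normalized count of 2866. Of tissue beside the retina, 4 markers of the pigment epithelium ran from 2.72 (Best1) to 540 (Ttr) and 3 of the lens from 49.1 (Mip) to 898 (Cryaa). Markers of Muller glia ran from 1.39 (Rlbp1, counted as 2 transcripts) to 17455 (Glul), of horizontal cells from 47.7 (Lhx1) to 505 (Calb1) and of ganglion cells from 5.53 (Rbpms, counted as 3 transcripts) to 2999 (Nefl). Of 3 amacrine markers, Tfap2a was not listed and the others were at 1725 (Slc6a9) and 2415 (Gad1). Markers of microglia ran from 4.08 (Aif1) to 39.0 (Cx3cr1) and of endothelium from 0.446 (Pecam1, counted as 2 transcripts) to 51.1 (Cldn5). Those of erythrocytes ran from 0.213 (Hba-a1) to 10.7 (Hbb-b1). Best1, Aif1 and Hba-a1, the lowest of their sets, were counted as 1 transcript each. How many of the Gnb3 reads came from bipolar cells was not tested.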

How the data were processed

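Retinas of 8 spaceflight and 8 ground control mice were sequenced as stranded libraries with reads of 75 bases. Per the authors' notes, trimming used Trimmomatic, mapping used TopHat2 on an earlier mouse assembly than GRCm38, counting per RefSeq transcript used HTSeq, and DESeq2 (1.22.2, under R 3.5.1) served for normalization and testing. The value used is the signal that the authors deposited for each gene symbol, the mean over all libraries of counts divided by the size factors. How the rows of several transcripts were joined into a gene symbol is not given in the sources used here. The authors' fold changes, standard errors and p-values in the same table hold the results of their own comparison and were not used. The 32 columns of counts in the other tables match no label of a sample and were not used, so the planned count tests could not be run. Depth per sample and the spread between mice are not analysed here.

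Each counted RefSeq transcript was matched by accession, without its version, to a GENCODE M21 transcript of GRCm38. The longest matched transcript gave the length of a gene. The planned RefSeq transcript and protein lengths were replaced by those of GENCODE, with the coding length taken from its annotated coding exons. Overlap of transcripts was measured as the share of different windows of 75 bases found in several of them. This was done for the 2811 of 3794 gene symbols with several transcripts of which all were matched (74.1%). A reference transcript matched by several rows was entered once per row, so all its windows counted as shared. Coding sequences were aligned globally with Biopython 1.88 (match 1, mismatch -1, gap opening -5, gap extension -0.5). The window and run functions were tested on simulated sequences. The members and lists were chosen with earlier results of these data known. Named are all members, Gngt2, the pathway genes that bind transducin or PDE6 or have the highest or lowest level, and paralogs of the members. All genes of the pathway and marker lists but 1 were used, and that gene is not reported here. Rgs9 and Gnb5 fall under that rule, while Cngb1, Slc24a2 and single markers, the limit of 1 for a level near 0 and the limit of 1000 for a high level were chosen after values were seen. Python 3.11.15, numpy 2.4.6, pandas 2.3.3 and matplotlib 3.10.9 were used.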

Additional observations from a re-analysis of the deposited data

How the results depend on the processing

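The summed level of rod subunits over that of cone subunits was 71.9 per kilobase of transcript, 57.0 per kilobase of coding length and 69.3 without division by length. Without Gnb1 and Pde6c, left out after seeing the data, it was also 71.9. These genes add almost nothing to the sums, so leaving them out could not move the ratio. The median level of the 10 members was 2774 per kilobase of transcript, 3666 per kilobase of coding length and 4384 without division by length, and 4932 per kilobase of transcript without Gnb1 and Pde6c. The ratio of Pde6g to Pde6h (227, 32.8 and 34.4 in the same order of lengths) and that of Pde6a to Pde6b (1.06, 1.74 and 1.74) moved with the length, and that of Gnat1 to Gnat2 was 116, 133 and 131. None of these ratios turned below 1, but that of Gnat2 to Pde6h did with coding length (6.33, 0.518 and 2.19 in the same order). Pde6a was at 0.248, 0.129 and 1.26 and Pde6b at 0.233, 0.0744 and 0.725 of Pde6g, so that the order of Pde6a and Pde6g turned without division by length. The planned tests between groups, with their alternatives of DESeq2 size factors, no filter on low counts and the permutation test of rod minus cone subunits, were not run. No paired analysis was possible because the columns of counts carry no replicate number of the labels. The levels are means that pool all mice and are given without an error, so a difference between neighbours in the order of levels was not set against a spread.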
